A study of Mus musculus with 6 samples.

Results

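The uninjured subventricular zone (SVZ) of the adult mouse brain was described from the 3 sham-surgery arrays of a series of 6, with no comparison to the 3 stroke arrays. By its title the study concerns how brain injury is signalled to neural stem and progenitor cells through calcium waves in astrocytes. The sham group was adult male C57BL/6 mice that underwent sham surgery in place of occlusion of the middle cerebral artery and were killed 48 h later. Per the labels' protocols, the SVZ was taken out within minutes and kept in RNAlater, its total RNA was isolated with a kit from Ambion, and the labelled target carried biotin. No allele or transgene is named. The labels do not say how the sham operation was done, whether tissue was pooled or whether each array held a separate mouse, so the spread given here may be technical. One protocol field speaks of cells isolated from fresh brains and another of dissected SVZ, and the values below read as tissue with neurons, glia and vessels in it.

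Of 45101 probe sets, 34945 carried exactly 1 gene symbol and were no manufacturer's control, and they named 18193 genes. The probe set with the highest mean over the 3 sham arrays stood for each gene. Levels are log2 values after quantile normalisation over the 3 arrays, so a difference of 1 is a doubling of signal. A gene's percentile is its position by mean level among the 18193 genes. It orders probe set readings, which also depend on how well a probe binds, and is not an amount of RNA relative to another gene. There is 1 group and no contrast within it, so no test was run and every statement is a description of these 3 arrays.

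The SVZ lines the lateral wall of the lateral ventricle and is a site where neurons are made throughout adult life. Slowly dividing stem cells with astrocyte features give rise to transit-amplifying progenitors, and these to neuroblasts that migrate in chains towards the olfactory bulb. A sheet of multiciliated ependymal cells separates the niche from the cerebrospinal fluid, and the striatum, with its GABAergic projection neurons and myelinated fibre bundles, lies directly beneath.

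A background band was taken from 75 genes for odorant, vomeronasal and taste receptors, which brain tissue is not known for. Their median level was 5.90, and the band was set at 6.44, their 95th percentile, which lay at percentile 31.2 of all genes. On all 3 arrays 11978 genes, 65.8%, read above it. The highest receptor reading was that of Vmn1r44, a vomeronasal receptor gene, with 7.34, 7.75 and 7.59 on sham 1, sham 2 and sham 3, so a value a little above the band does not by itself mark expression. Among 41 genes of other organs, such as Krt10, a keratin of skin, 4 read above the band, and their 95th percentile was 7.20.

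Across genes, Pearson's r between arrays was 0.984 (sham 1 and sham 2), 0.988 (sham 1 and sham 3) and 0.992 (sham 2 and sham 3), over genes that are not independent replicates. The median gene had an SD of 0.106 over the 3 arrays. On the deposited scale the medians ran from 6.57 to 6.58. The poly-A spike controls, RNA added before labelling, averaged 7.96 on sham 1 over 24 probe sets, against 8.65 on sham 2 and 8.89 on sham 3, while the 18 hybridisation controls read 10.50, 10.34 and 10.59. The 3′ minus 5′ difference of Actb was 0.95, 1.30 and 1.13 log2.

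The highest readings of the niche were those of mitochondria, ribosomes, cytoskeleton and myelin, with neuronal and astrocytic genes among them. ND5, a subunit of respiratory complex I encoded in mitochondrial DNA, ranked first with 13.86, 13.73 and 13.73. Mbp, the myelin basic protein gene of oligodendrocytes, ranked second with 13.62, 13.62 and 13.82. The 3 readings of each gene lay within 0.20 of one another, and where 2 arrays give the same value the gene held the same rank on both, as quantile normalisation assigns values by rank.

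Ribosome and translation genes followed: Rps29 (mean 13.50), Eef1a1 (13.48), the elongation factor that brings aminoacyl-tRNA to the ribosome, Tpt1 (13.14), Rpl37a (13.01), Rps14 (12.97), Rpl41 (12.96), Rpl38 (12.95), Rps3a1 (12.93), Rps28 (12.89), Rpl4 (12.83) and Rpl13a (12.82). The respiratory chain stood there with Uqcrb (13.29), Cox5b (13.05) and Cox6a1 (13.03). Cytoskeleton genes in the same group were Actb (13.44), Tuba1a (13.09), the spectrin Sptbn1 (12.94) and the actin-binding Tmsb4x (12.94). All of these are kinds of gene that every cell uses.

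Brain-typical genes made up much of the remainder. Pcp4, a calmodulin-binding peptide of striatal and cerebellar neurons, read 13.26, 13.49 and 13.46. Clu, a secreted chaperone of astrocytes, read 12.86, 13.21 and 13.06, and Arpp21, a phosphoprotein of striatal projection neurons, 12.85, 12.71 and 12.94. The other neuronal and glial genes of the group were Ndrg4 (mean 13.29), the neuropeptide-processing enzyme Cpe (12.95), App (12.84), the membrane protein Gpm6a (12.84) and the myelin enzyme Cnp (12.83), with the chaperone Hspa8 at 13.13.

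Fth1, the ferritin heavy chain that stores iron, averaged 13.30 but read 13.50, 12.88 and 13.52, low on sham 2. Cnp read 12.64, 12.58 and 13.26, high on sham 3. These were the 2 of the 30 with a range above 0.5. Of the 30, 14 were read by probe sets of the _s_at or _x_at kind, which may bind transcripts of related genes, so their level may be shared with copies.

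**Figure D1:**
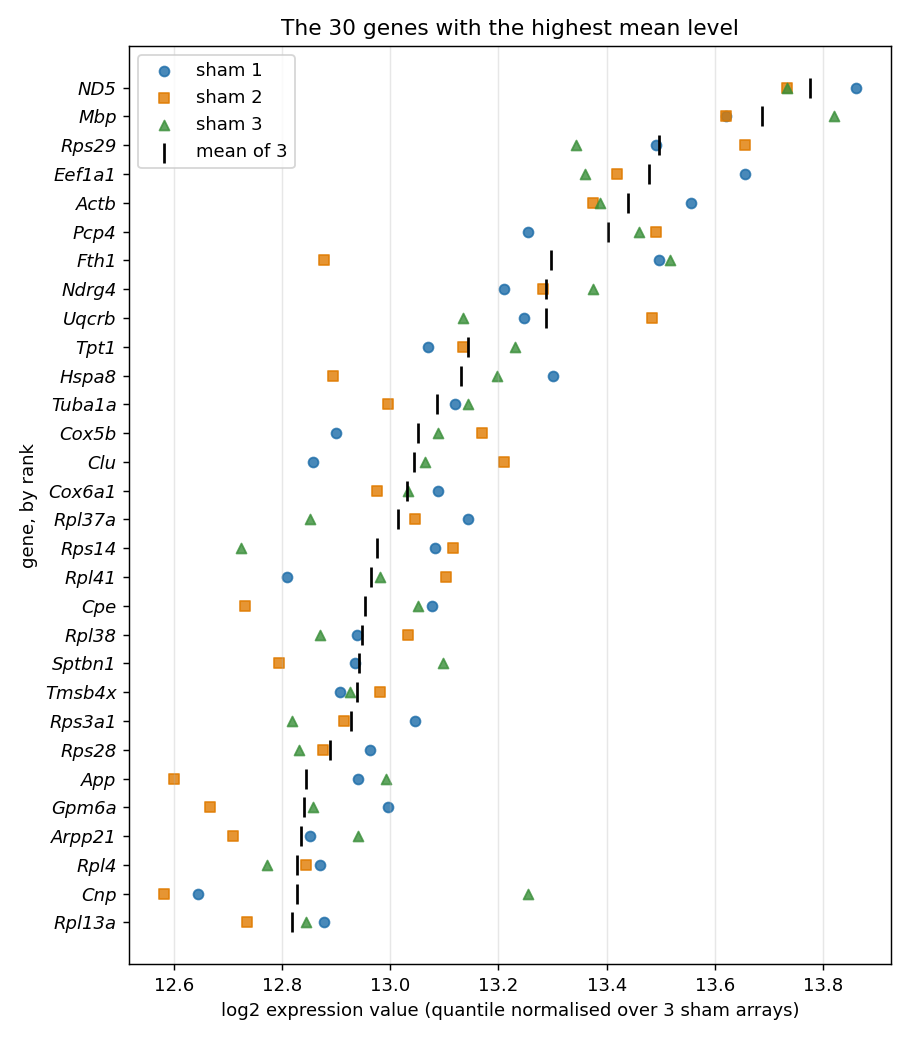
Levels of the 30 genes with the highest mean, by array. The x axis is the log2 level, circles, squares and triangles are sham 1, sham 2 and sham 3, and the bar is their mean; Fth1 falls to 12.88 on sham 2 and Cnp rises to 13.26 on sham 3, while most others keep their 3 values close together.

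Over the 100 highest genes, 25 encoded cytosolic ribosomal proteins, 10 nuclear-encoded subunits of the respiratory chain and 10 tubulin, actin or their binding proteins. Astrocyte markers numbered 4 (Clu, Slc1a2, Aldoc and Glul), oligodendrocyte markers 3 (Mbp, Cnp and Mobp) and striatal projection neuron markers 2 (Arpp21 and Penk). The lists overlap, and Cnp was counted both with the tubulin and actin genes and with the oligodendrocyte markers. Of the 100, 61 stood in any list used here. The genes were short: the median genomic span was 5.84 kb against 20.3 kb for all genes with a RefSeq gene span. Of the 100, 30 rested on _s_at or _x_at probe sets against 8.78% of all genes.

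Ribosomal protein genes showed what a position on the array can and cannot say. Of 49 cytosolic ribosomal protein genes 46 read above the band and 35 in the top 10% of genes (10% of all by construction), with a median percentile of 99.5. Rps16, which every ribosome contains, stood at percentile 4.75, as low as a receptor gene. A gene of all cells can thus read at background on these arrays, and a low percentile of any single gene below has to be read in that light. Rpl3l, a muscle form, stood at 9.04. Rpsa read 11.94, 12.62 and 12.31 and Rpl10a 11.80, 12.40 and 11.92, the widest of the family, lowest on sham 1 and highest on sham 2. Of the 49 members, 32 were highest on sham 2, against 43.1% of all genes. On sham 3, 31 were lowest, against 29.2% of all genes, and on sham 1 only 13, against 43.2%.

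The promoters of these genes are shown because the family gave 25 of the 100 highest genes. Of 43 with a RefSeq promoter window (250 bases before to 50 after the start, GRCm38.p6), 21 held the letters CCGGAAG on either strand, the core recognised by ETS-family factors, against 13.8% of the 14368 genes with a window. A match is a description of letters and not a measured site; the motifs searched were chosen after several had been looked at. Capitals mark the motif in the windows of Rpl41 (chr10:128549119-128549418, minus strand), Rpl38 (chr11:114668330-114668629, plus strand) and Rps3a1 (chr3:86142619-86142918, minus strand), where it begins at −56, −20 and −9 from the start.
Rpl41: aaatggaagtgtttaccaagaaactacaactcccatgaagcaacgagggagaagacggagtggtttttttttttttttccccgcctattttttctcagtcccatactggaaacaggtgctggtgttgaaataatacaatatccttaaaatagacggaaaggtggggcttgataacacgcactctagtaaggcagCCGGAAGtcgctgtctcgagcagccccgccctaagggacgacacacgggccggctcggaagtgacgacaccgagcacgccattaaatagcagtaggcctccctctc
Rpl38: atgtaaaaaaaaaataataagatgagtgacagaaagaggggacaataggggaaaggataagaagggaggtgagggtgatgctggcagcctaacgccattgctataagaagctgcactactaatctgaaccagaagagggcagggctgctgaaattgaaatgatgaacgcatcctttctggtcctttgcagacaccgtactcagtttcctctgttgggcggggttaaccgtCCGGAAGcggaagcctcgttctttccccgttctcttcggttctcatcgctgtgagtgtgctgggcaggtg
Rps3a1: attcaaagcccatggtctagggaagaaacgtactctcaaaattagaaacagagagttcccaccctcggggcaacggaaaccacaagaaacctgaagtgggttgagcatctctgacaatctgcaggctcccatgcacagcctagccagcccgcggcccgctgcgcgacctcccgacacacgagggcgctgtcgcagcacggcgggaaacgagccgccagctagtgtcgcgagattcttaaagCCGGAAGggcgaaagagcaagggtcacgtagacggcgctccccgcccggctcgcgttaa

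The nuclear-encoded respiratory chain gave a like picture, with 75 of 80 genes above the band, 68 in the top 10% and a median percentile of 97.8. Cox7a2 stood just under the 3 leading members. Ndufs8, a complex I subunit, read 10.88, 11.79 and 11.48 and Sdhc, of succinate dehydrogenase, 9.02, 9.42 and 9.67, both lowest on sham 1. The lowest members were Ndufb4 at percentile 14.8 and Cox7b2, a testis form, at 6.81.

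Of the cell type lists, those of striatal projection neurons, neurons in general and astrocytes stood highest, and those of red blood cells, septal and hypothalamic neurons and leukocytes lowest. In bulk tissue, fewer cells of a type and less RNA per cell cannot be told apart, so each list is given as a reading of the whole tissue. Over 20 lists the median percentile ran from 98.0 for striatal projection neurons to 10.3 for red blood cells. Of 9 red blood cell entries only 4 were measured. The beta-globin genes were not among them, so this list does not gauge the blood in the tissue. All genes would give 50 by construction. Of 731 entries in the cell type and function lists, 668 were measured, and 63 found no probe set with 1 symbol and are not analysed here.

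**Figure D2:**
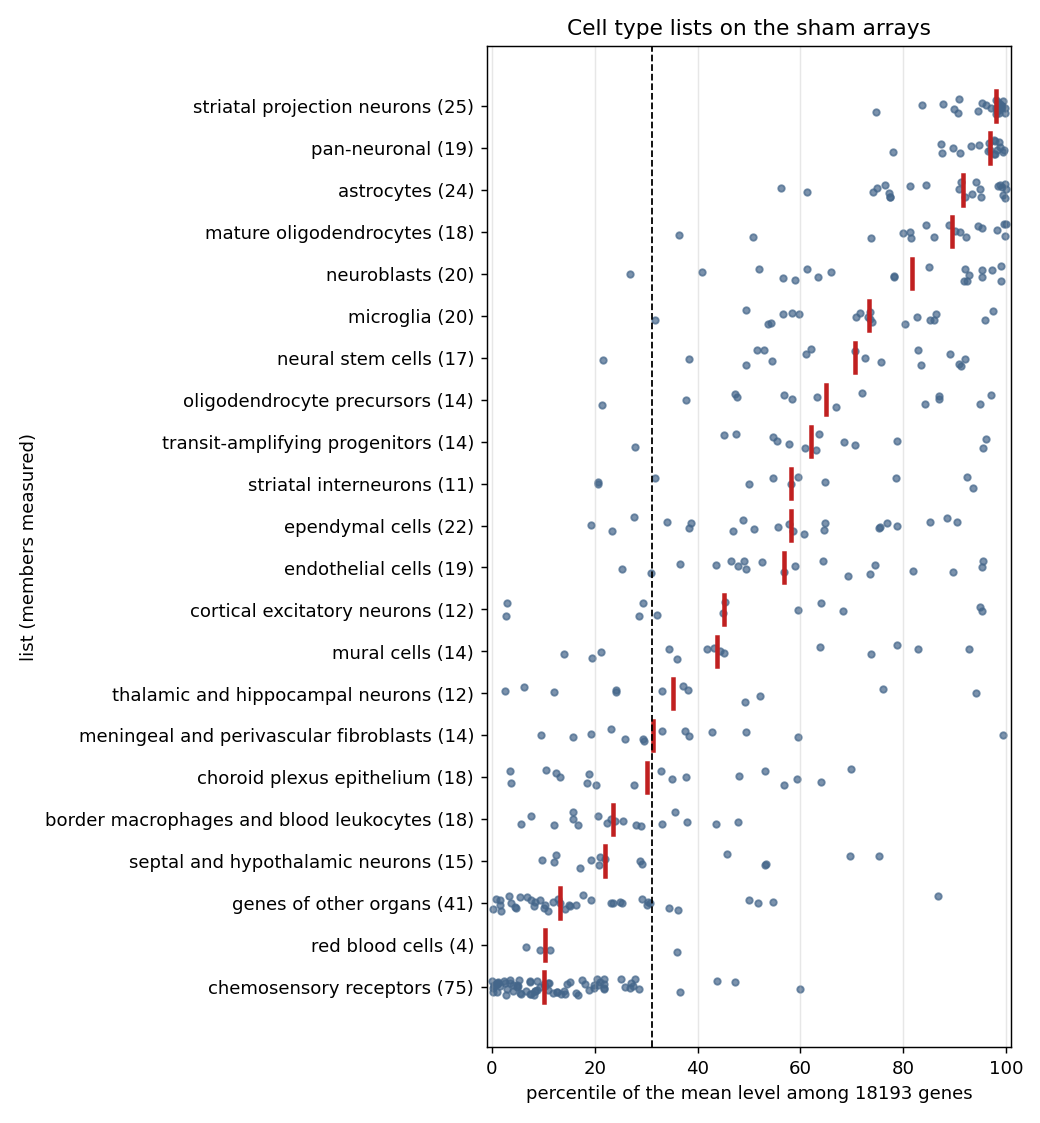
Position of the members of each cell type list and of the 2 reference lists among all genes. Each point is 1 gene, the x axis is the percentile of its mean level, the red bar is the list's median and the dashed line the band at percentile 31.2; the lists run from striatal projection neurons (98.0) down to chemosensory receptors (10.1).

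Stem cell genes read in the upper middle of the array. Of 17 markers of neural stem cells 16 lay above the band, 14 above the median gene and 3 in the top 10% (5 with averaged probe sets), with a median percentile of 70.7. Sox2, a transcription factor of neural stem cells that astrocytes also keep, read 9.89, 9.48 and 9.46, highest on sham 1. Fabp7, a lipid carrier of radial glia and astrocytes, read 9.58, 10.22 and 9.26 and was the widest of the list, high on sham 2. Nes, the intermediate filament of progenitors, read 7.47, 7.88 and 7.62, near the middle of the array at percentile 62.0.

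Cd9, a tetraspanin, stood at percentile 90.8 and Tnfrsf19, a receptor known from SVZ stem cells, at 89.2. Nr2e1, the nuclear receptor TLX needed for stem cell upkeep, read 7.02, 7.57 and 7.37, lowest on sham 1. At the lower end were Hes1, a Notch effector, at percentile 38.3 and Veph1 at 21.6, below the band. Several of these genes are shared with astrocytes, so their readings cannot be credited to stem cells alone.

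Genes of dividing progenitors read above the band on all 3 arrays for most markers. Of 14 transit-amplifying markers 13 lay above the band and 11 above the median gene, with a median percentile of 62.0. Mki67, the proliferation antigen Ki-67, read 7.93, 8.16 and 7.79. Egfr, the receptor that marks activated progenitors, read 7.53, 7.35 and 7.23 at percentile 55.5. Pcna, the sliding clamp of DNA polymerase, stood at 96.2 and the cyclin Ccnd2 at 95.6, though both are also used by cells that are not dividing.

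The ribonucleotide reductase subunit Rrm2 stood at percentile 70.6. Cdk1, the mitotic kinase, read 6.77, 7.33 and 6.90, high on sham 2, and Hmgb2, a chromatin protein of proliferating cells, read 8.94, 8.60 and 8.10, low on sham 3. On sham 2, 10 of the 14 members were highest, and on sham 3, 11 were lowest, with median deviations from the 3-array mean of −0.0018, 0.16 and −0.17 log2. Over 5 other settings of scaling and probe sets the value on sham 2 went down to 0.065, that on sham 3 to −0.099, and that on sham 1 lay between −0.029 and 0.063. Over all genes 43.1% were highest on sham 2 and 29.2% lowest on sham 3, and the median deviations were −0.021, 0.025 and −0.0025. The replication helicase gene Mcm3 (45.1) and the homeobox gene Gsx2 (27.9) were the lowest members.

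Neuroblast genes read higher. Of 20 markers 19 lay above the band, 18 above the median gene and 9 in the top 10%, and the median percentile was 81.7. Dcx, doublecortin, the microtubule protein most used to mark migrating neuroblasts, read 9.06, 9.07 and 8.86 at percentile 85.1. Sox11, a transcription factor of immature neurons, read 11.07, 11.06 and 10.35, and Cd24a, a surface protein of neuroblasts and ependymal cells, 10.35, 10.57 and 9.89. Both were lowest on sham 3, while Dcx was nearly level over the arrays.

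Stmn1 (99.1), Gad1 (99) and Sox4 (95.4) completed the top of the list; Gad1, which makes GABA, is equally a gene of striatal neurons. Of the DLX homeobox genes that specify these GABAergic cells, Dlx1 stood at percentile 78.3, Dlx2 at 63.5, Dlx5 at 59.0 and Dlx6 at 56.7. Sp8 (40.8) and the Slit receptor Robo2 (26.9) were lowest.

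Astrocyte genes were read uniformly high, with 1 exception between arrays. All 24 measured markers lay above the band and above the median gene, and 14 were in the top 10% (median percentile 91.6). Slc1a2, the main glutamate transporter, read 12.86, 12.31 and 12.71, and Gja1, the gap junction protein connexin 43, 11.76, 11.65 and 11.47. Aldoc, an aldolase, stood at percentile 99.7 and Glul, glutamine synthetase, at 99.5. The lowest were the amino acid transporter Slc7a10 (61.4) and angiotensinogen, Agt (56.2), still above the middle of the array.

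Gfap, the intermediate filament of astrocytes and SVZ stem cells, read 7.28, 9.12 and 9.0. Sham 1 was low and the other 2 arrays close together, a range of 1.84 log2 or 3.59-fold between the extremes. A second Gfap probe set read 6.85, 8.67 and 8.49, the same pattern, and the third 7.30, 7.67 and 7.43, where sham 1 was again lowest but by little. Atp1b2, a sodium pump subunit of astrocytes, was also low on sham 1, at 9.71 against 10.51 and 10.46. S100b and Agt were lowest on sham 1 as well. Of the 24 members 14 were lowest and 8 highest on sham 1, as were 43.2% and 29.3% of all genes, and the list's median deviation there was −0.10 log2 against −0.021 over all genes.

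Ependymal genes were read at middle level and differed between the arrays. Of 22 markers 19 lay above the band and 14 above the median gene, with a median percentile of 58.2. Foxj1, the master regulator of motile cilia, read 7.11, 7.72 and 7.29. Tmem212 read 8.73, 9.73 and 8.59 and Ccdc153, a ciliary coiled-coil protein, 9.26, 10.19 and 9.12. Each of the 3 was highest on sham 2.

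Rarres2, chemerin, read 9.05, 9.90 and 9.04, and Dynlrb2, a dynein light chain of cilia, 8.27, 9.20 and 8.16. Of the 22 members, 21 were highest on sham 2, against 43.1% of all genes, and 18 lowest on sham 3, against 29.2%, with median deviations of −0.08, 0.31 and −0.20 log2. The exception was Dnah5, an axonemal dynein, with 6.35, 6.03 and 6.01, which with Spag16 was the lowest of the list and lay in the background band. Of all 18193 genes, 51 read more than 0.5 log2 higher on sham 2 than on both other arrays. Of the 22 members 8 did so: Tmem212, Dynlrb2, Ccdc153, Cfap126, Rarres2, Ak7, Mia and Pifo.

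Promoters of this list are shown because its members moved together between the arrays. Of 19 with a window, 9 held GTTGCC on either strand, against 12.8% of all windows. These letters are found in the binding sites of RFX factors, which are known regulators of cilia genes. The motif was chosen after several had been looked at. A longer form, GTTNCC (N any letter) and its reverse complement 2 letters apart, was in 0 of the 19 windows and 0.529% of all. Of the 8 genes named above, only Ccdc153 and Dynlrb2 were found with GTTGCC. The longer form was searched with a fixed spacing and fixed letters, so looser pairs were not counted. In the Dynlrb2 window below, a near copy of the motif's reverse complement closely follows the capitals, and the search could not count it. Whether paired sites are absent from these windows therefore cannot be read from that count. A link between the motif and the shared movement was not tested. GTTGCC begins at −152 from the start in Ccdc153 (chr9:44240427-44240726, plus strand), at −51 in Dynlrb2 (chr8:116504765-116505064, plus strand) and at −34 in Enkur (chr2:21205316-21205615, minus strand). Capitals mark it.
Ccdc153: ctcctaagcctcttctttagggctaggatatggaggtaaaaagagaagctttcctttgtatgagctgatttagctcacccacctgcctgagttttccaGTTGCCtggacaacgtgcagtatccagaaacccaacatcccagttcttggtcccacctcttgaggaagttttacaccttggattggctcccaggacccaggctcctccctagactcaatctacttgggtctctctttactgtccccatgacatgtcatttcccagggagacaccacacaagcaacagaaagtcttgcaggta
Dynlrb2: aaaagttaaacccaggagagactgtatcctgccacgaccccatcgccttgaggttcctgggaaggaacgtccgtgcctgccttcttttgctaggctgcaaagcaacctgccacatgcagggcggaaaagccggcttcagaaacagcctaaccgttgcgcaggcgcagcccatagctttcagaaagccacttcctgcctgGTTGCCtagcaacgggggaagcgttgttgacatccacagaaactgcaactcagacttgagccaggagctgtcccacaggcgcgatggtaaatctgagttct
Enkur: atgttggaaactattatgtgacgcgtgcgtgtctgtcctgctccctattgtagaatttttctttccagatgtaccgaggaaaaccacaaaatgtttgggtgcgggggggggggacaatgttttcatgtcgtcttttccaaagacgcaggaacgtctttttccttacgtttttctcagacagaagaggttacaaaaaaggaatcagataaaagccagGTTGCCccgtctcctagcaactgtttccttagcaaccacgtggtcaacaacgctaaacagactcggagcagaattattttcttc

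Choroid plexus, which floats in the same ventricle, was close to background. Of 18 markers 8 lay above the band, 5 above the median gene and 0 in the top 10% (median percentile 30.2). Ttr, transthyretin, the most abundant transcript of choroid plexus epithelium, read 7.58, 7.45 and 7.58. The 3 arrays were level, at percentile 59.3. Clic6 (69.8), Cab39l (64.0) and Ace (56.9) were the other high members, while Kcne2 (3.53) and Slc4a5 (3.79) read with the receptor genes. Calml4 was the widest, with 6.81, 7.39 and 6.89.

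Myelin genes were among the highest on the arrays and also differed between them. Of 18 markers of mature oligodendrocytes 17 lay above the band and the median gene and 9 in the top 10% (median percentile 89.5). Mobp, another basic protein of myelin, read 12.40, 11.82 and 12.62, and Mal, a proteolipid, 11.01, 10.98 and 11.61. Mag, the myelin-associated glycoprotein, read 9.12, 9.39 and 10.18. Sham 3 was the highest in each.

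Cldn11, the claudin of myelin, read 9.62, 9.27 and 10.27, and Fa2h, which makes hydroxylated myelin lipids, 9.0, 9.13 and 9.99. All 18 members were highest on sham 3, where 27.6% of all genes were highest, and 14 were lowest on sham 2, as were 27.6% of all genes. The median deviations were −0.09, −0.29 and 0.41 log2. Hapln2 (50.7) and Nkx6-2 (36.4) were the lowest. Of all 18193 genes, 39 read more than 0.5 log2 higher on sham 3 than on both others, and of the 18 members 8 did so.

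**Figure D3:**
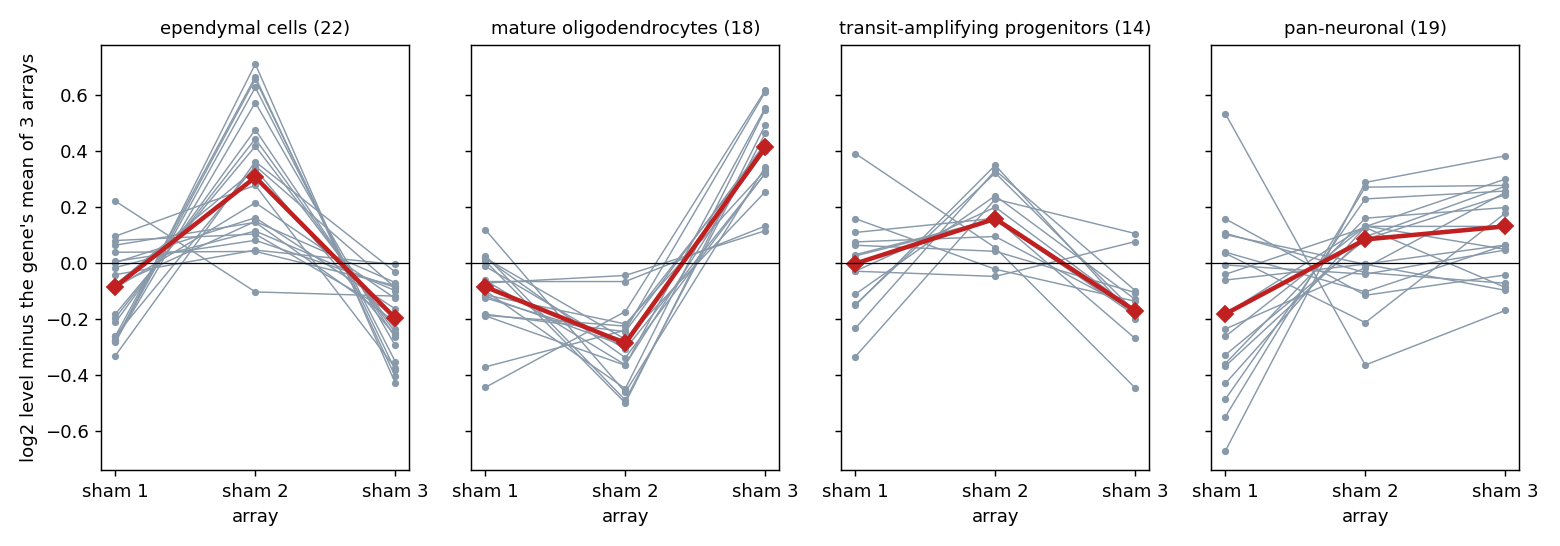
Deviation of each member from its own 3-array mean, in log2, on each array for 4 lists. Grey lines are single genes, red diamonds the list's median, and the arrays have no order; ependymal genes peak on sham 2 (median 0.31), oligodendrocyte genes on sham 3 (0.41), transit-amplifying genes are lowest on sham 3 (−0.17) and pan-neuronal genes on sham 1 (−0.18).

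Markers of oligodendrocyte precursors stood lower on the array than those of mature cells. Of 14 markers 13 lay above the band and 10 above the median gene (median percentile 65.1). Olig1, a transcription factor of the lineage, read 10.40, 10.64 and 11.18, and Sox10, shared with mature oligodendrocytes, 8.33, 8.96 and 9.51, both highest on sham 3. Pdgfra, the growth factor receptor that defines precursors, read 9.21, 9.07 and 9.19, level over the arrays. Ptprz1 stood at percentile 94.9 and Cacng4 at 87.0, with C1ql1 (37.8) and Bmp4 (21.4) lowest.

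Microglia were read clearly and other immune cells hardly. Of 20 microglial markers 19 lay above the band and 18 above the median gene (median percentile 73.4). Csf1r, the receptor microglia need to survive, read 10.97, 10.83 and 10.92, and Cx3cr1, the fractalkine receptor, 8.75, 8.43 and 8.74. Ctss (96.0), Ly86 (86.4) and the complement gene C1qb (85.9) were next, and Trem2 (49.4) and Itgam (31.8) lowest. Laptm5 read 8.57, 7.80 and 8.31 and Gpr34 7.62, 6.93 and 7.32, the widest and both lowest on sham 2. Tyrobp (8.44, 9.12 and 8.81) and Selplg (7.68, 8.33 and 8.24), next in range, were highest on sham 2 and lowest on sham 1. Of the 20 members 8 were lowest and 8 highest on sham 2, against 27.6% and 43.1% of all genes. On sham 1, 10 were lowest, against 43.2%.

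Of 18 markers of border macrophages and blood leukocytes 5 lay above the band and 0 above the median gene, with a median percentile of 23.6. Cd3e (47.8), Ccr2 (43.6), Cd74 (38.0) and H2-Ab1 (35.6) were the highest, and Lyve1 (7.70) and Cd3g (5.69) the lowest. S100a9, a neutrophil gene, read 6.11, 6.48 and 6.05 and Cbr2 6.02, 6.35 and 6.13. Of 4 red cell genes Hba-a1, alpha globin, read 5.83, 5.91 and 5.59, Slc4a1 stood at percentile 9.29, Epb42 at 11.3 and Alas2 at 36.0, the 1 above the band.

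Genes of neurons in general stood second among the cell type lists by median percentile. All 19 pan-neuronal markers lay above the band and the median gene, and 15 were in the top 10% (median percentile 96.9). Snap25, a synaptic fusion protein, read 12.36, 12.22 and 12.38, and Rbfox3, the antigen NeuN, 11.04, 11.50 and 11.68. Syn1, a synaptic vesicle protein, read 8.91, 9.87 and 9.97, low on sham 1. Map2, of dendrites, went the other way with 11.49, 10.59 and 10.79.

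Of the 19, 11 were lowest on sham 1, as were 43.2% of all genes, and 12 were highest on sham 3, against 27.6%. The median deviations were −0.18, 0.08 and 0.13 log2, against −0.021, 0.025 and −0.0025 over all genes. Over the 5 other settings that on sham 1 went to −0.091, and that on sham 2 changed sign, to −0.024. Syt1 stood at percentile 99.4, Stmn3 at 98.8, and Syp (87.4) and Sncb (78.0) were the lowest.

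Genes of striatal projection neurons, the cells beneath the ventricular wall, stood first by that measure. All 25 markers of striatal projection neurons lay above the band and the median gene and 21 in the top 10%, with a median percentile of 98.0, the highest of the 20 cell type lists. Drd1, the dopamine receptor of the direct pathway, read 11.61, 11.57 and 11.57, and Drd2, that of the indirect pathway, 9.38, 9.47 and 9.77. Penk, which encodes enkephalin, read 12.74, 12.79 and 12.93. Drd1 was level over the arrays, and Drd2 and Penk were highest on sham 3.

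Tac1, the substance P precursor, stood at percentile 99.4 and the sodium channel subunit Scn4b at 99.2. Rasd2, a striatal GTPase, read 10.49, 11.17 and 11.51 and Syndig1l 8.82, 9.21 and 9.72, both lowest on sham 1 and highest on sham 3. Of the 25 members 18 were highest on sham 3, against 27.6% of all genes, and 14 lowest on sham 1, against 43.2%. The median deviation on sham 3 was 0.15 log2 and lay between 0.064 and 0.16 over the settings. Actn2 (83.7) and Pdyn (74.8), the dynorphin precursor, were the lowest, yet in the upper part of the array.

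Other neurons read lower. Of 11 striatal interneuron markers 8 lay above the band (median percentile 58.3): Npy averaged 9.95 with a range of 1.15 and Sst 9.75 with a range of 0.78, both low on sham 1, and Pvalb read 7.34, 7.09 and 8.03, high on sham 3. Nos1 (78.7) and Ecel1 (64.8) followed, while Chat and Slc5a7 of cholinergic cells both stood at 20.7, in the background band. Of 12 cortical excitatory markers 7 lay above the band (45.1), led by Mef2c (95.3) and Lamp5 (95), which other neurons also express. Slc17a7, the vesicular glutamate transporter of cortical neurons, read 6.32, 6.32 and 6.53, and Neurod6 (2.88) and Tbr1 (2.78) read at the bottom.

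Rorb read 8.45, 7.61 and 7.80 and Nptx1 7.96, 7.13 and 7.53, both highest on sham 1, and Cux2 stood at 63.9. Of 15 septal and hypothalamic markers 5 lay above the band (22.0): Nts read 8.69, 8.39 and 7.88, Zic1 8.34, 7.62 and 8.10, and Hcrt (53.3) and Oxt (53.1) were next, with Slc17a6 (12.2) and Sim1 (9.69) lowest. Of 12 thalamic and hippocampal markers 6 lay above the band (35.2), led by Zbtb20 (94.2), which astrocytes also express, Rora (76.1), Ramp3 (52.2) and Prkcd (49.2); Prox1 read 6.38, 6.00 and 6.40, and Lct (6.31) and Dsp (2.47) were lowest. Above the median gene were 5 of 12 cortical, 4 of 15 septal and hypothalamic and 3 of 12 thalamic and hippocampal markers, against 25 of 25 markers of striatal projection neurons.

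Vessel genes were read at middle level. Of 19 endothelial markers 17 lay above the band and 11 above the median gene (median percentile 56.8). Cldn5, the claudin of the blood-brain barrier, read 8.15, 8.41 and 8.27. Slc2a1, the glucose transporter, read 10.57, 10.21 and 10.14, and Itm2a (95.3), Slco1c1 (89.8) and Slco1a4 (81.9) followed. Ctla2a read 7.21, 7.07 and 6.78, and Cdh5 (30.9) and Tie1 (25.3) were lowest.

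Of 14 mural cell markers 10 lay above the band (43.9). Rgs5, of pericytes, stood at percentile 92.8, and Acta2, smooth muscle actin, read 8.51, 9.18 and 8.78. Vtn (78.8) and Pdgfrb (73.7) were next, Abcc9 read 7.08, 6.6 and 6.96, and Cnn1 (19.4) and Anpep (14.0) were lowest. Of 14 fibroblast markers 7 lay above the band (31.3), with Ptgds at 11.76, 12.02 and 12.40, a gene that oligodendrocytes also express. Igf2 read 7.36, 7.58 and 7.69, Dcn stood at 49.4 and Col1a2 at 42.7, and Lum (15.8) and Aldh1a2 (9.62) were lowest.

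The label of the tissue was read against the lists that define it: neuroblast and ependymal markers lay above the band in 19 of 20 and 19 of 22 cases, and stem cell markers in 16 of 17. Over all genes 65.8% lay above it, and several of these markers are shared with astrocytes or striatal neurons.

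Pathways named for the niche were read mostly in the middle of the array. Of 23 Notch genes 20 lay above the band and 0 in the top 10% (median percentile 57.2). Notch1, a receptor that maintains neural stem cells, read 8.06, 8.39 and 8.24, and Hes5, its effector, 8.28, 8.19 and 8.05. The ligands were lower, Jag1 at percentile 60.4 and Dll1 at 50.2.

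Adam10, the protease that cuts the receptor, read 9.52, 8.64 and 9.10, highest on sham 1, and Rfng 7.69, 8.42 and 8.49, lowest there. Hey1 (84.7), Dtx1 (77.8) and Numb (75.2) followed. Heyl (30.1) and Hey2 (9.48) were lowest, in the background band.

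The list of genes for calcium waves in astrocytes was led by pumps and the gap junction, read in bulk tissue and not in astrocytes alone. Of 31, 27 lay above the band and 7 in the top 10% (median percentile 64.4). Atp2a2, the pump that refills the endoplasmic reticulum, read 11.96, 11.78 and 11.90, and Atp2b1, a plasma membrane pump, 12.38, 11.08 and 11.57, the widest, highest on sham 1. Gja1 stood at 98.9 and Atp2b2 at 98.2. S100b read 8.54, 8.95 and 9.32.

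Of the receptors for released nucleotides on this list, P2rx4, an ATP-gated channel, was highest, with 7.24, 7.29 and 7.37 at percentile 54.0. P2ry12 (73.3) and P2ry13 (58.3), counted with the microglial markers, stood higher. P2rx7 stood at percentile 38.8, P2ry1 at 36.1, P2ry6 at 31.8, P2ry2 at 18.1 and P2ry4 at 17.9. The hemichannel gene Panx1 stood at 67.2 and the inositol trisphosphate receptor gene Itpr2, the form known from astrocytes, at 38.0.

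The growth factor list was led by a signal mediator, 2 receptors and 1 ligand. Of 39 genes 29 lay above the band and 1 in the top 10% (57.1): Smad4, the shared mediator of BMP and TGF-beta signals, with 10.88, 10.32 and 10.24. Ptch1, the Hedgehog receptor, stood at 89.2, Tgfa, an EGF receptor ligand, at 88.7 and Igf1r at 88.4. Cntfr read 7.02, 7.68 and 7.61. Of the ligands, Egf read 5.99, 6.04 and 5.89 and Fgf2 5.64, 5.52 and 5.60, both in the background band, as was Btc, with 5.90, 5.92 and 5.85.

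For migration, 22 of 27 genes lay above the band (63.4). Vldlr, the reelin receptor, read 11.15, 10.36 and 10.53, Reln, its ligand, stood at 94.9, Pafah1b1, the gene LIS1, at 94.3 and Ncam1 at 91.8. Efnb2 read 9.83, 9.22 and 9.28, and Robo3 (17.5) and Erbb4 (6.51) were lowest. Of 23 positional transcription factors 11 lay above the band (36.4). Meis2, of the lateral ganglionic eminence lineage, read 11.57, 11.25 and 11.34, with Dlx1, Zic1 and Six3 (68.3) next.

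Lhx2 read 7.46, 7.93 and 8.14. The cortical Tbr1 (2.78) and midbrain-hindbrain En1 (0.333) were lowest. Of 26 matrix genes 22 lay above the band (55.7): Sparcl1 (99.2), the proteoglycans Bcan (98.0) and Ncan (95.1) and Ptprz1 led, Spock2 read 9.37, 10.50 and 10.68 and Agrn 8.26, 9.01 and 9.01, both low on sham 1, and Nid2 (18.5) and Lama1 (16.5) were lowest.

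Immediate early genes, which rise within minutes of neuronal activity or handling, read above the median in 16 of 22 cases (median percentile 68.0). Egr1 read 11.66, 11.54 and 11.76 at percentile 99, Homer1 stood at 97.6, Egr3 at 97.2 and Nr4a1 at 92.7. Arc read 7.78, 8.20 and 9.10, and Fos 8.45, 8.58 and 9.43, both highest on sham 3. On sham 3, 16 of the 22 were highest, against 27.6% of all genes, and the median deviations were −0.05, −0.10 and 0.10. Fosb (28.7) and Atf3 (28.3) were lowest.

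Housekeeping and metabolic lists read high. Heat shock and chaperone genes lay above the band in 17 of 17 cases (96.3): Hspa8, Hsp90aa1 (99.4), Hsph1 (98.6) and Tcp1 (98.4) led, and the stress-induced Hspa1b (58.4) and Hspa1a (36.2) were lowest. Calr, calreticulin, read 9.80, 11.18 and 11.14, low on sham 1 by all 3 of its probe sets, and Pdia3 10.22, 9.54 and 9.67. Of 17 genes of glycolysis and creatine metabolism all lay above the median (95.8), led by Aldoc, Ckb (99.6), Aldoa (99.3) and Ldhb (99.1). Gatm, which makes the creatine precursor, read 9.15, 8.09 and 9.04, low on sham 2, and Pfkl 8.09, 8.99 and 9.04.

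Of 24 tubulin and actin genes 21 were in the top 10% (median percentile 99), with Tubb3 (78.2) and Pfn1 (71.0) lowest. Of 28 synaptic genes 26 lay above the band (92.8), led by Snap25, Syt1, Gad1 and the complexin Cplx1 (98.8), and Slc17a7 (29.3) and Grin2a (22.1) were lowest. Of 14 genes on the list of translation factors all were in the top 10% (98.5), led by Eef1a1, Tpt1, Eif4a2 (99.2) and Eif5a (99.1). The lowest were Eif3h (97.0) and Nap1l1 (95.4), a nucleosome assembly gene that is not itself a translation factor. Eef1a2, the elongation factor of neurons, read 10.95, 11.71 and 11.96, and Eif4g2 11.56, 10.94 and 11.23.

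Of 14 ubiquitin and proteasome genes 13 were in the top 10% (94.6): Psma3 (98.5), Skp1, Psmb1 (96.9) and Uchl1 (96.5) led and Psmc1 (92.2) and Psmb2 (80.4) were lowest. Skp1 read 11.10, 10.45 and 10.74 and Ube2b 10.61, 10.19 and 10.08. Of 18 lipid genes 13 were in the top 10% (93.4): Clu, Apoe (99.7), Scd2 (99.5) and Dbi (99.3) led, Cyp46a1, which clears brain cholesterol, read 9.26, 10.10 and 10.34, and Sqle (77.0) and Cyp51 (71.1) were lowest. Of 15 iron, heme and metallothionein genes 10 were in the top 10% (95), with Mt1 (99.3), Gpx4 (98.0) and Prdx2 (97.9) below Fth1, Txn1 at 9.93, 10.75 and 10.31, and Slc11a2 (46.2) and Hmox1 (36.6) lowest.

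The spread over the arrays was narrow for most genes. A range over 1 log2 was seen in 83 genes, 0.456% of all, of which 82 lay above the band, and 10 passed 1.5. Spread grew with level: with genes in 10 equal groups by level, the median SD was 0.0721 in the lowest group and 0.162 in the highest. Among the 83, sham 1 was the lowest array in 64 and the highest in 16, so it was an extreme in 80. Without sham 1 the count of genes with a range over 1 was 3, without sham 3 it was 52, and with the probe sets of each gene averaged it was 53. Over all genes, sham 1 was the lowest array in 43.2% and the highest in 29.3%, so it was an extreme in most genes.

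Mt3, the brain metallothionein, had the largest range, with 8.72, 10.95 and 10.94, or 4.70-fold between extremes. Tubb4a, a beta-tubulin of neurons and oligodendrocytes, read 9.24, 10.25 and 10.89, and Nrgn, neurogranin of dendrites, 9.06, 9.85 and 10.49. Sham 1 was the low array in each. Erdr1 read 8.25, 10.13 and 9.51 on a probe set that may bind related transcripts, and its second probe set ranged by 0.17.

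Genes high on sham 1 were fewer. Sesn3, a sestrin, read 11.61, 9.97 and 10.13, but its second probe set ranged by 0.52. Rbfox2, a splicing factor, read 9.78, 8.21 and 8.47, and its other 3 probe sets ranged by 0.14 or less at levels between 6.16 and 6.86. Kif5b, a kinesin motor, read 11.27, 9.89 and 10.39, highest on sham 1 in 5 of its 6 probe sets. A wide range in 1 probe set was thus not always one of the whole gene.

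The others among the 20 widest were Actl6b (range 1.55), of the neuronal chromatin remodeller, Pisd-ps3 (1.53), Nell2 (1.52), Gatad2b (1.51), Cnih2 (1.45), an AMPA receptor partner, Pcsk1n (1.38), Gltp (1.37), Phpt1 (1.34), the GTPase Rhob (1.34), the lipid transfer gene Pltp (1.34) and Ubl7 (1.33). All 11 were lowest on sham 1 by the probe set used. The other Gatad2b probe sets ranged by 0.24 to 0.36, some of them highest on sham 1, and the second of Nell2 by 0.46. Of the 20, 17 were lowest and 3 highest on sham 1, against 43.2% and 29.3% of all genes, and 10 had 1 probe set.

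**Figure D4:**
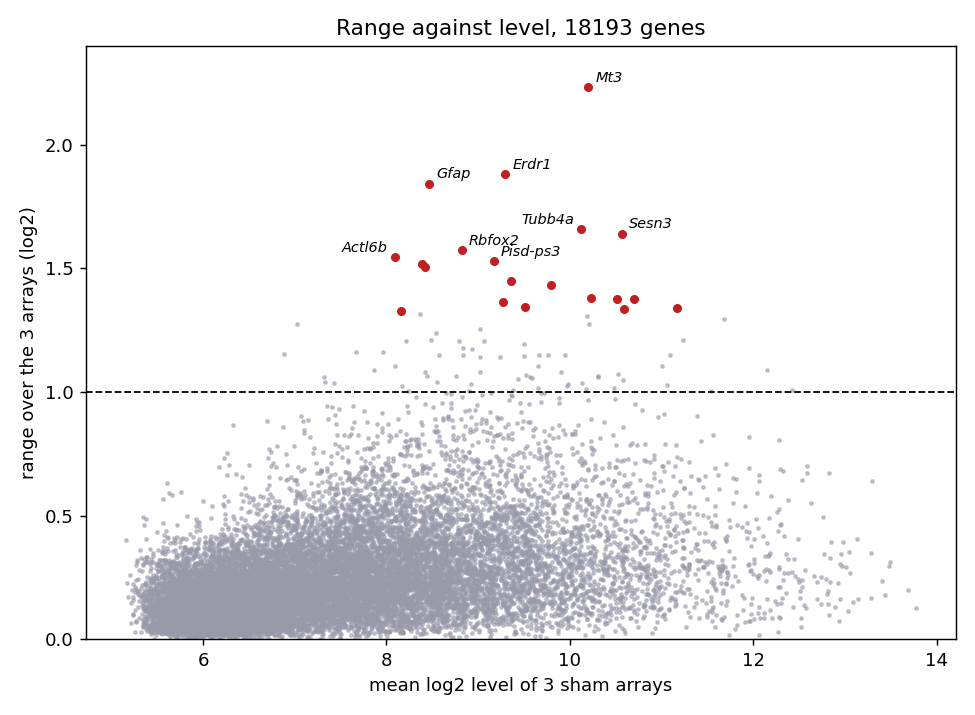
Range over the 3 sham arrays against mean level for 18193 genes, both in log2. Red points are the 20 genes above the band with the largest range, the first 8 named, and the dashed line is a range of 1; Mt3 has the largest range, 2.23.

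Sham 1 stood apart in more genes than the other arrays. It read more than 1 log2 below both others in 29 genes and above both in 3, against 0 genes in either direction on sham 2 and on sham 3. These 32 genes at least 1 log2 from both other arrays on sham 1 became 16 on the deposited values, 15 with arrays shifted to one median and 18 with averaged probe sets. At more than 0.5 log2 the counts were 315 below and 125 above on sham 1, 61 and 51 on sham 2, and 6 and 39 on sham 3. The genes low on sham 1 had a median genomic span of 13.4 kb and those high on it 48.9 kb, against 20.3 kb for all genes. The poly-A spike controls were also lowest on sham 1, and whether labelling had a part in the difference was not tested.

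Promoter composition followed the level of the genes. The median CpG ratio (observed over expected CG pairs) of the 300-base windows was 0.247 in the lowest of 10 equal groups of genes by level, 0.813 in the ninth and 0.805 in the highest. TATAAA between 45 and 16 bases before the start was held by 6.81% of windows in the lowest group, 0.334% in the eighth and 1.27% in the highest, against 2.62% of all. These are properties of 14368 windows side by side and not tests.

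**Figure D5:**
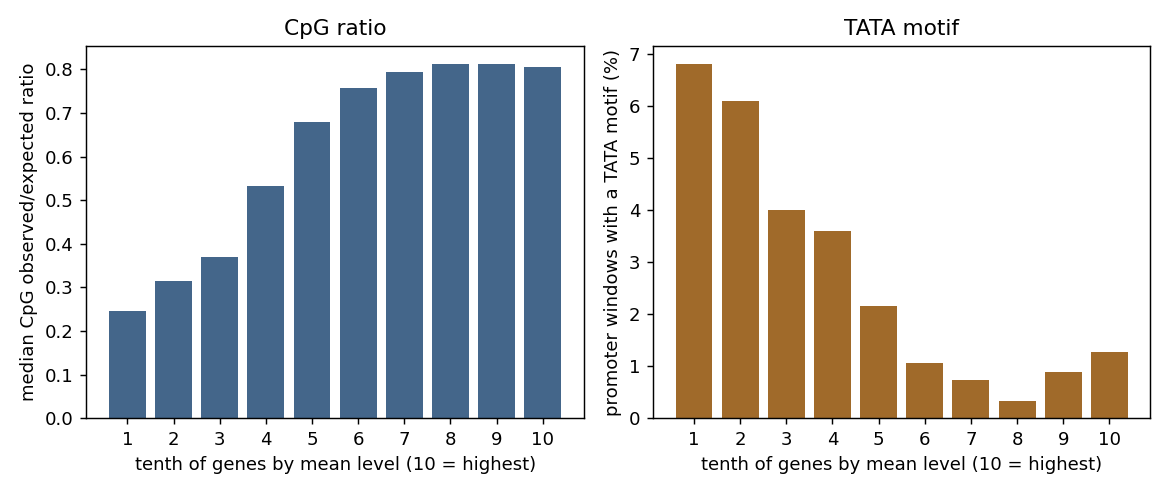
Promoter windows in 10 equal groups of genes ordered by mean level. The left bars are the median CpG observed over expected ratio and the right bars the percent of windows with TATAAA near the start; the ratio climbs from 0.247 to 0.805 and the share with TATAAA falls from 6.81% to 1.27%.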

How the data were processed

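Gene expression in SVZ tissue was measured on one-colour arrays with Affymetrix-type probe sets. The authors deposited log2 values, 1 per probe set and array; the background correction, probe summary and normalisation they used were not given in the sources used here. The 3 sham columns were quantile normalised together with limma 3.58.1 in R 4.3.3, and all later steps used Python 3.11.15 with pandas 2.3.3. Of 45101 probe sets, 64 controls, 932 with several symbols and 9160 with no symbol were left out of the gene table. Names came from the array annotation, and 18032 of the 18193 genes were found by gene number in RefSeq, which also gave gene spans and promoter windows (GRCm38.p6).

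No 2 arrays held the same deposited value for any of the probe sets used, and the number of arrays limits the precision. Replicate numbers from the labels only name the arrays. The steps were tested on simulated data with known levels. The genes named are the 30 highest, the 20 above the band with the widest range, in each list the 4 highest, the 2 lowest and the 2 widest, and a set of standard niche markers; other members were named after their values were seen. The members, lists and motifs were chosen with earlier results of these data known. Alternatives were the values as deposited, a shift to a common median, quantile normalisation over all 6 arrays, averaging over all probe sets per gene, omission of _s_at and _x_at sets, other background bands and omission of each array.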

Additional observations from a re-analysis of the deposited data

How the results depend on the processing

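The number of genes above the chemosensory receptor band was 11978 and kept within 1.5 times of that under every alternative run, from 8224 with the band at the 95th percentile of genes of other organs to 12241 without sham 2. The count of genes with a range over 1 log2, 83, fell to 53 when the probe sets of each gene were averaged and ran from 3 to 58 when 1 array was left out: 3 without sham 1, 58 without sham 2 and 52 without sham 3, where a range over 2 arrays is narrower by construction. The 80 of them with sham 1 at an extreme became 50 with the mean of probe sets. Genes more than 1 log2 from both others on sham 1, 32 in all, became 16 on the values as deposited, 15 after shifting the arrays to one median and 18 with averaged probe sets. The mean of probe sets also changed counts in the top 10%: stem cells from 3 to 5, transit-amplifying from 2 to 1, ependymal from 1 to 2, microglia from 2 to 6, endothelial from 2 to 4 and mural from 1 to 0. Leaving out 1 array moved the ependymal count between 0 and 2. The causes were not tested.

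The patterns of 6 lists between arrays were recomputed, a choice made after seeing the data, under 5 alternatives. Ependymal members highest on sham 2 numbered 19 to 21 of 22, oligodendrocyte members highest on sham 3 17 or 18 of 18, and pan-neuronal members lowest on sham 1 9 to 11 of 19. The median deviation on sham 2 ran from 0.21 to 0.31 log2 for ependymal, from 0.065 to 0.16 for transit-amplifying, from 0.0067 to 0.089 for neuroblast and from −0.024 to 0.085 for pan-neuronal genes, that on sham 3 from 0.38 to 0.44 for oligodendrocyte and from 0.064 to 0.16 for striatal genes, and that on sham 1 from −0.19 to −0.091 for pan-neuronal genes. Of 296 recomputed list percentiles 49 moved by more than the spread between arrays, 26 of them with the mean of probe sets. Named gene means moved by more than 1 SD in 49 of 507 cases, and named gene ranges in 115 of 507. The ranges that moved were 14 of 64 on the values as deposited and 15 of 64 after a shift to one median. Without sham 1 they were 32 of 64. No paired analysis was possible because 1 group was described and no result comes from a test.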

Other observations

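Probe sets outside the gene table also gave signal. Of 9160 probe sets with no symbol 2136 read above the band on all 3 arrays and 35 reached the level of the top 1% of genes, and of 932 with several symbols 539 and 80 did so, so some of the highest transcripts of the tissue are unnamed here.

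The choice of the highest probe set favours genes with many. The median percentile was 33.3 for 9183 genes with 1 probe set, 57.0 for those with 2, 67.6 with 3 and 76.4 with 4 or more. Among the 9010 genes with several, the highest and lowest sets differed by a median of 1.11 log2 and by more than 2 log2 in 2377 genes, 26.4%.

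Anxa2 and Serpina3n, genes known to rise in reactive astrocytes, were both highest on sham 2, and were picked after their values were seen. Of the 24 astrocyte markers 10 were highest on sham 2, against 43.1% of all genes. Their median deviation there was 0.055 log2, against 0.025 over all genes. Anxa2 read 8.08, 9.03 and 8.16, and Serpina3n 6.72, 7.51 and 6.75. With 3 arrays, no statement about separate mice can be made from either.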
